A study of Homo sapiens with 4 samples.

Results

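Metallothioneins are the main small metal-binding proteins of the cell, and MTF1 is the transcription factor known for switching their genes on. A set of 6 gene symbols was looked up in the deposited values, namely those of the metallothionein genes MT2A, MT1X, MT1E, MT1F and MT1G and that of MTF1, and rows were chosen by symbol alone with no measured value used. Of these symbols 3 had a row among the 14431 genes listed (MT2A, MT1X and MTF1). The other 3, MT1E, MT1F and MT1G, were not analysed here, and neither were 14 further metallothionein genes and pseudogenes that were searched for, of which 0 had a row. The comparison asked whether the transcripts of this family and of its regulator changed when AARS1, the cytosolic alanyl-tRNA synthetase, was knocked down.

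RNA was sequenced from HGC27, a human gastric cancer cell line, in 2 control libraries labelled WT and 2 libraries of siAARS1 cells, in which AARS1 had been knocked down with siRNA. The deposited columns of the controls are named NC, and what these cells received in place of the siRNA was not established here. All 4 came from cells in glucose-free DMEM with 10% FBS that received 25 mM lactate, for 24 h per the labels, while the text of the study gives another duration. No library without lactate was compared, the model is 1 cell line, and the knockdown was partial. Per library, 30653210 to 33522573 reads fell in listed genes, and 1 read was worth 0.0293 to 0.0324 CPM (reads of a gene scaled to the size of its library). Nothing states that the 2 libraries of a group came from separate cultures, so the p-values measure the spread between these libraries, which may be technical.

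Metallothioneins are short proteins very rich in cysteine, whose thiol groups hold zinc, copper and cadmium. They buffer zinc in the cytosol and take up toxic metals and some reactive oxygen species. MTF1 carries zinc fingers that respond to free zinc, moves to the nucleus and binds metal response elements (MREs) in the promoters of metallothionein genes and of the zinc exporter SLC30A1. Glucocorticoid hormones are also known to induce MT2A. In humans the functional metallothionein genes form a cluster on chromosome 16.

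The coding sequences of both metallothionein genes with a row are shown because they set how far the 2 proteins differ and how far their reads can be told apart. They come from GENCODE v29 on GRCh38, the stop codon is left out, and capitals mark the cysteine codons. MT2A (ENSG00000125148) lies on the plus strand at chr16:56608199-56609497 with its coding sequence between 56608656 and 56609351, and MT1X (ENSG00000187193) lies on the same strand at chr16:56682424-56684196 with its coding sequence between 56682541 and 56684046.
MT2A coding sequence: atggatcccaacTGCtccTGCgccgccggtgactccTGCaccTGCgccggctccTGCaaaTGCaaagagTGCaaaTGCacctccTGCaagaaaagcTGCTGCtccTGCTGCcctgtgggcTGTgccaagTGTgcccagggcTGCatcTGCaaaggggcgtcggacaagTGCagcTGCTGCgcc
MT1X coding sequence: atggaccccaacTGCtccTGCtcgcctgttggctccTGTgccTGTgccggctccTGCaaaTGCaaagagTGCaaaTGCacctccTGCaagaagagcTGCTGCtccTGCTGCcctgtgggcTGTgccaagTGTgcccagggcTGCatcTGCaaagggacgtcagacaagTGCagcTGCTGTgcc
Each encodes 61 residues, of which 20 are cysteine (32.8%). The sequences share 169 of 183 bases, and the encoded proteins share 55 of 61 residues (90.2%). All 20 cysteines stand at the same position in both.

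Similarity reaches beyond the coding part of the transcripts. Of the 401 windows of 50 bases in the MT1X transcript, 181 (45.1%) also occur in a transcript of another gene, among them MT2A, MT1A, MT1F, MT1G and MT1M. For MT2A the share was 36 of 737 windows (4.89%), and for MTF1 it was 51 of 7923 (0.644%). The level of MT1X is therefore uncertain where a read could have been split among family members, and MT1X also overlaps the annotated gene AC026461.1 on the same strand, which has no row. MTF1 overlaps AL929472.4 on the opposite strand, which also has no row, and the use of strand in counting is not given in the sources used here.

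Promoter sequences of RefSeq (GRCh38.p14, 250 bases before the annotated start) were found for all 3 genes with a row. They are shown because MTF1 binds MREs there. The MRE core was searched as TGCACNC or TGCGCNC on both strands, overlapping matches included, and 24.7% of 27305 promoters held at least 1 core. MT2A had 7 cores, a number that 0.0330% of promoters reach or pass, and MT1X had 4, which 0.366% reach or pass. None of the 7 cores of MT2A overlapped a GC box (GGGCGG), an AP-1 site (TGACTCA) or a TATA box (TATAAA), and 1 of the 4 in MT1X did. Capitals mark the cores. For MT2A, where an annotated GENCODE transcript begins before the RefSeq start, 3 short stretches with 4 of its cores are given, and for MT1X the bases before the GENCODE transcript are given whole. Positions count back from the RefSeq start, and all stretches read along the plus strand.
MT2A at -160 to -131 (chr16:56608424-56608453): agccgggTGCGCCCggcccagTGCGCGCgg
MT2A at -98 to -69 (chr16:56608486-56608515): agcgcggggcGTGTGCAggcagcgcccggc
MT2A at -67 to -38 (chr16:56608517-56608546): ggggcggggctttTGCACTCgtcccggctc
MT1X at -250 to -47 (chr16:56682220-56682423): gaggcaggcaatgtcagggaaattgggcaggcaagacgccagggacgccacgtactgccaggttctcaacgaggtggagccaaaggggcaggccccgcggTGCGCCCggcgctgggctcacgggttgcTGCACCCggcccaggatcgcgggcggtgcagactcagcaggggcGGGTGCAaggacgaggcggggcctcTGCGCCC
Both metallothionein promoters held 1 TATA box, as did 11.1% of all promoters with at least 1, and 2 GC boxes each, a number that 24.4% of promoters reach or pass. MT2A had 1 AP-1 site, a motif in 4.16% of promoters, and MT1X had 0. The promoter of MTF1 held 0 MRE cores and 1 GC box. A match describes the letters in this window and is not a measured binding site.

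The table lists AARS1 under its older symbol AARS. It stood at 428 and 417 CPM in the control libraries and at 292 and 298 CPM in the siAARS1 libraries, which left 69.8% of the control mean. The direction matches the labels, and the fall was 0.52 on the log2 scale (limma adjusted p = 2.52e-11). Of the genes tested, 11.9% had a still lower log2 change. After the correction for transcript GC content and length described below, the log2 change of AARS was -0.33, and 22.6% of genes were lower.

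MT2A, a metallothionein expressed in most human tissues, rose with the knockdown. Its level was 139 and 136 CPM in the control libraries (4754 and 4317 reads) and 239.8 and 232 CPM in the siAARS1 libraries (7405 and 7720 reads). The 2 siAARS1 libraries lay far above both controls, and the gap between groups was many times the gap between libraries of a group. Means were 138 ± 2.37 CPM (SD, n = 2) and 236 ± 5.35 CPM (SD, n = 2), a ratio of 1.71. On the log2(CPM + 1) scale the change was 0.77 (SE 0.0391, limma adjusted p = 1.21e-13), which exceeded the change of 85.8% of the 14199 genes tested.

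MT1X, a metallothionein of the MT1 group, moved by almost the same ratio at a much lower level. It stood at 15.5 and 15.0 CPM in the control libraries (530 and 476 reads) and at 27.0 and 25.3 CPM in the siAARS1 libraries (833 and 841 reads). Again the groups did not overlap. The means of 15.3 ± 0.382 and 26.1 ± 1.19 CPM (SD, n = 2 each) gave a ratio of 1.71, and the log2 change was 0.74 (SE 0.0764, limma adjusted p = 2.15e-08).

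MTF1 (ENSG00000188786, minus strand, chr1:37809567-37859620), the regulator, also rose. Its values were 22.6 and 22.8 CPM in the control libraries (771 and 722 reads) and 30.2 and 30.5 CPM in the siAARS1 libraries (934 and 1013 reads). Libraries of a group were nearly equal and the groups did not overlap. Means of 22.7 ± 0.103 and 30.4 ± 0.161 CPM (SD, n = 2 each) gave a ratio of 1.34, with a log2 change of 0.40 (SE 0.0670, limma adjusted p = 1.60e-05).

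**Figure D1:**
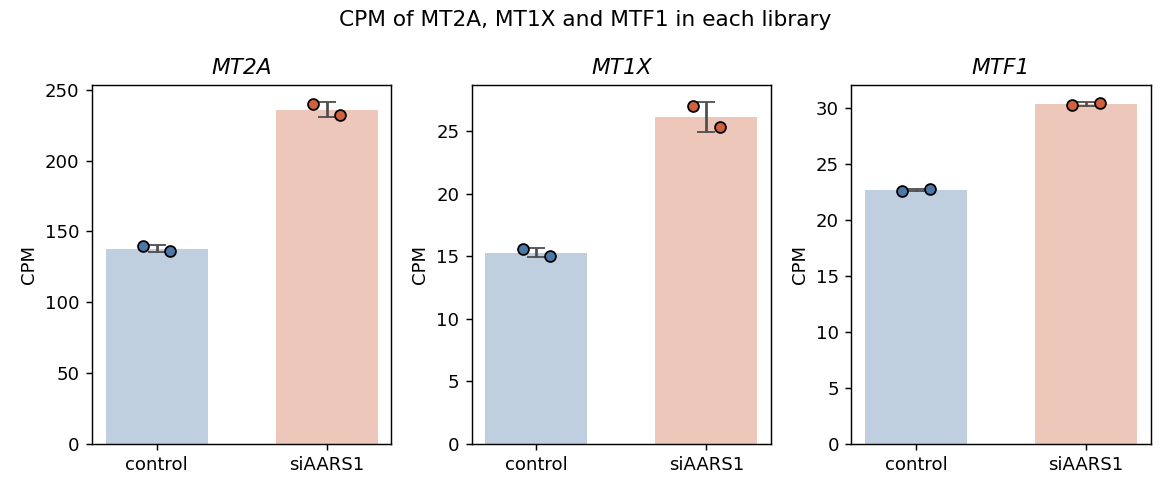
CPM (y axis, 1 scale per gene, from 0) of MT2A, MT1X and MTF1 in control and siAARS1 cells, with a point for each library, bars at the mean and error bars of 1 SD (n = 2). In each panel both siAARS1 points lie above both control points, at a mean ratio of 1.71 for MT2A, 1.71 for MT1X and 1.34 for MTF1.

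All 3 genes with a row passed the filter on low values and were called higher. This has to be read against a background in which 70.7% of the genes tested were called in either direction, 32.6% higher and 38.0% lower (46.2% of the calls were higher, and 28.8% under median scaling), and in which both siAARS1 libraries exceeded both controls for 38.5%. A call alone therefore sets no gene apart in these libraries, and the size of the change carries more information. Because these are bulk samples, fewer cells of a type and less RNA per cell cannot be told apart.

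To compare levels between the genes, CPM was divided by the length of the principal GENCODE transcript. MT2A was highest at 175 ± 3.02 CPM per kb in control and 300.2 ± 6.80 CPM per kb in siAARS1 cells. MT1X followed at 33.9 ± 0.849 and 58.1 ± 2.63 CPM per kb. MTF1 was lowest at 2.85 ± 0.0130 and 3.81 ± 0.0202 CPM per kb (SD, n = 2 throughout). Each step in this order was far larger than the spread between libraries. The MT2A transcript used has 786 bases, and RefSeq places the start 385 bases further in. With the remaining 401 bases the MT2A level would be 343.5 and 588.5 CPM per kb, which keeps the order.

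The 2 metallothioneins stood in nearly the same proportion in all 4 libraries. Of the MT1X windows of 50 bases, 45.1% also occur in other genes, MT2A among them, so the 2 levels may not be independent. The part of shared reads in this proportion was not tested. The CPM of MT1X was 11.15% and 11.03% of that of MT2A in the control libraries and 11.25% and 10.89% in the siAARS1 libraries, so the groups overlapped and the log2 difference was -0.0022. Summed, they stood at 155, 151, 267 and 258 CPM in the 4 libraries, of which MT2A took 89.9 to 90.2%. Relative to both, MTF1 was lower in each siAARS1 library than in each control. Its CPM was 16.2% and 16.7% of that of MT2A in the control libraries and 12.6% and 13.1% in the siAARS1 libraries. Against MT1X it was 145% and 152% in control and 112% and 120.4% in siAARS1 cells. These ratios are not corrected for length, and with 2 libraries a group the smallest exact permutation p (two-sided) is 0.333, so no difference between ratios could pass a threshold of 0.05.

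The siAARS1 and control libraries differed along a trend over transcript GC content and length across all genes, and the 3 genes lie on different parts of it. The MT2A transcript used, with 385 of its 786 bases before the RefSeq start, is short and GC-rich at 63.0% GC. MT1X has 450 bases at 50.9% GC, and MTF1 is long at 7972 bases and 46.7% GC. At these values the trend itself, fitted on genes whose mean reached 5 CPM, was -0.31 for MT2A, -0.15 for MT1X and 0.26 for MTF1 on the log2 scale. Taking it out raised the change of MT2A to 1.08 (SE 0.0296, limma adjusted p = 6.12e-15) and that of MT1X to 0.89 (SE 0.0682, limma adjusted p = 4.03e-09). For MTF1 it lowered the change to 0.15 (SE 0.0586, limma adjusted p = 0.0350). The change of MT2A then exceeded that of 97.5% of genes and the change of MT1X that of 95.8%, while for MTF1 the share was 67.2%.

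A second correction used the coding sequence alone, and gave 1.02 for MT2A, 0.95 for MT1X and 0.30 for MTF1. The correction takes out any true change that follows GC content or length, so neither value replaces the other. The scaling of the libraries also mattered. Shifting the libraries to the same median log2 value (median scaling) moved the median change of all genes from -0.05 to -0.27, and the changes became 0.55 for MT2A, 0.52 for MT1X and 0.19 for MTF1. Relative to the median change of all genes the reported changes were 0.83 for MT2A, 0.79 for MT1X and 0.46 for MTF1. Over 16 alternatives all 3 genes kept their direction and their call, with the log2 change running from 0.55 to 1.08 for MT2A, from 0.51 to 0.95 for MT1X and from 0.15 to 0.47 for MTF1. The share of all genes called higher was 23.3% after median scaling, 28.1% after quantile normalization and 34.7% with edgeR.

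**Figure D2:**
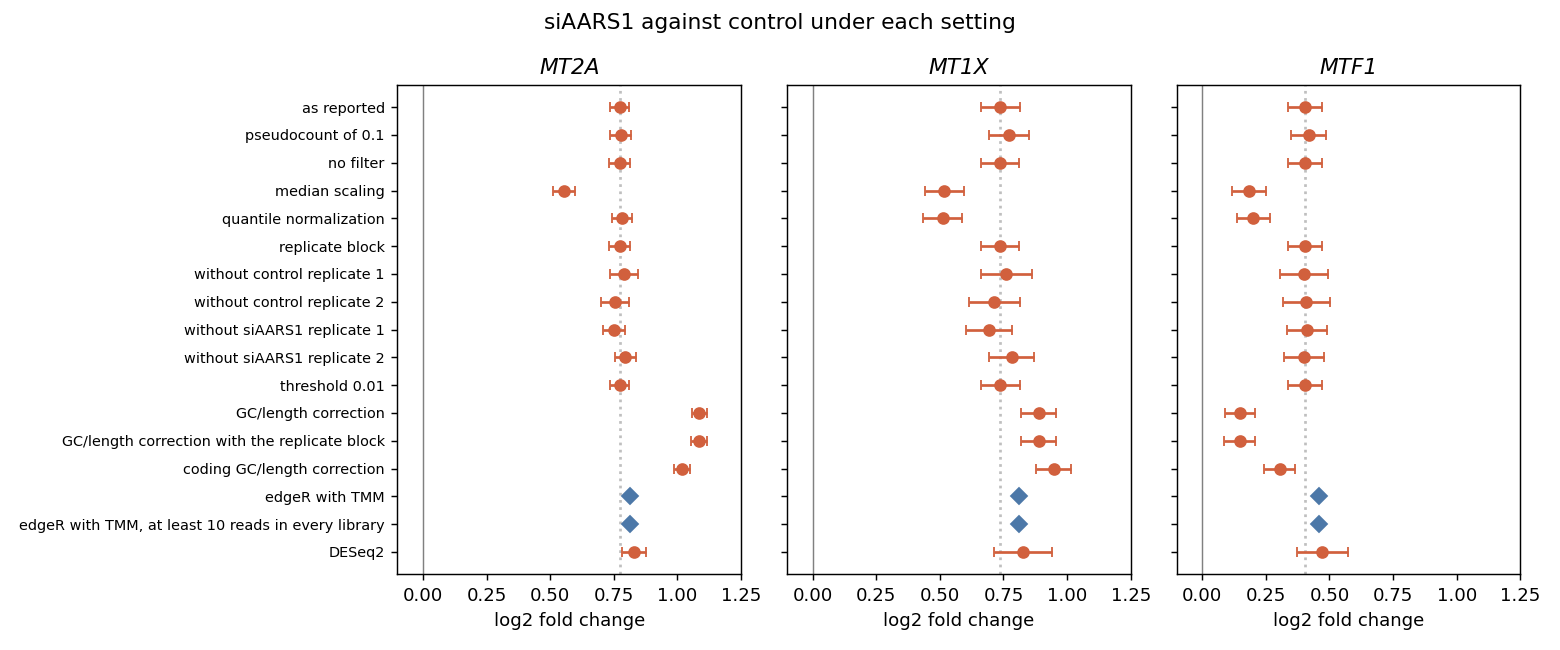
Log2 fold change of siAARS1 against control (x axis) for MT2A, MT1X and MTF1 as reported and under each of 16 alternatives (rows), with error bars of 1 SE where the fit gives one, and diamonds for edgeR, which gives none. Dotted lines mark the reported value. All points are above 0, and the corrections for GC content and length move MT2A and MT1X up and MTF1 down. MTF1 moves to 0.15 with the transcript correction and to 0.30 with the coding sequence correction.

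Other genes that MTF1 is known to act on were taken from a list of 9, of which 7 had a row and 6 were tested. Of these 3 rose, 1 fell and 2 were not called, with a median log2 change of 0.08 beside -0.05 over all genes, and of -0.14 under median scaling. Over all genes 32.6% were called higher and 38.0% lower. SLC30A1, which exports zinc from the cytosol and is the best known MTF1 target outside the family, went from 14.6 and 15.2 CPM to 34.3 and 37.8 CPM. That is a log2 change of 1.22 (limma adjusted p = 2.74e-12), but -0.05 after the transcript correction and 1.22 after the coding correction. SLC39A10, a zinc importer that MTF1 represses, went from 20.7 and 21.3 to 53.4 and 55.9 CPM, a log2 change of 1.34 (limma adjusted p = 2.17e-14), with 0.02 after the transcript correction and -0.22 after the coding correction.

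GCLC, the catalytic subunit of the enzyme that starts glutathione synthesis, rose by 0.27 on the log2 scale, with -0.05 after the transcript correction. NDRG1, a stress-responsive gene, fell by 0.75 and was still lower after it, at -0.48. C11orf31, now named SELENOH, and CSRP1 were not called, at -0.11 and -0.13. PGF, a growth factor, was listed at 0.704 and 1.20 CPM in the control libraries against 0.0970 and 0.301 CPM, and was too low to be tested. After the transcript correction 1 of the 6 was higher (C11orf31, 0.20), 1 lower and 4 not called, beside 31.9% and 34.2% of all genes called higher and lower. Of the targets with a promoter sequence, SLC30A1 held 1 MRE core, GCLC 2, CSRP1 4, and SLC39A10 and PGF 0. The transcripts of SLC30A1 and SLC39A10 have 38.0% and 37.6% GC, at the other end of the range from MT2A.

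Most zinc transporters of the SLC30 family move zinc out of the cytosol, to the outside or into organelles. Of 7 with a row 5 rose, 1 fell and 1 was not called, with a median of 0.71, where 32.6% of all genes were called higher. After the transcript correction 0 were higher and 5 lower, with a median of -0.57, where 31.9% and 34.2% of all genes were. Beside SLC30A1, SLC30A9 changed by 1.16 (-0.09 after the transcript correction). The transporters SLC30A7 and SLC30A6, which load zinc into the early secretory pathway, changed by 0.95 and 0.71 (-0.61 and -0.55 after it). SLC30A5 changed by 0.19, with -0.73 after the transcript correction, -1.07 after the coding correction and -0.029 under median scaling. SLC30A4 was not called at -0.09, and stood at -1.22 after the transcript correction. SLC30A3, which loads zinc into vesicles, fell by 0.91, and stood at -0.57 after it. With the coding correction 3 were higher and 4 lower, beside 31.9% and 35.2% of all genes. The metallothioneins kept their direction under both corrections.

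Importers of the SLC39 family bring zinc into the cytosol. Of 10 with a row 3 rose and 6 fell, with a median of -0.16, beside 32.6% of all genes called higher and 38.0% lower. After the transcript correction 0 were higher, 4 lower and 6 not called, beside 31.9% and 34.2% of all genes called higher and lower. The median was 0.01 after the coding correction. Of the importers, SLC39A6 changed by 0.62 (-0.01 after the transcript correction) and SLC39A8 by 0.47 (0.11 after it, not called). SLC39A13 fell by 0.60 and remained lower at -0.26.

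Metallothioneins also bind copper, and copper carriers were examined next. Of 12 genes, all with a row, 2 rose and 7 fell, with a median of -0.15, beside 32.6% of all genes called higher and 38.0% lower. After the transcript correction 1 was higher and 5 lower, beside 31.9% and 34.2% of all genes. After the coding correction 4 were higher and 3 lower, beside 31.9% and 35.2%. The copper-exporting ATPase ATP7A went from 4.08 and 5.08 to 15.3 and 16.4 CPM, a log2 change of 1.60 that was 0.27 after the transcript correction and -0.20 after the coding correction. Its relative ATP7B fell by 0.62 and CCS, the copper chaperone for superoxide dismutase, fell by 0.58. Both stayed lower after the transcript correction, at -0.47 and -0.25. SLC31A2, a copper transporter of low level, changed by -0.36, a call that 7 of 16 alternatives lost, among them those without control replicate 2 (-0.19) and without siAARS1 replicate 1 (-0.21).

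Heavy metals and oxidants are known to induce a wider set of genes. Of 10, all with a row, 1 rose, 7 fell and 2 were not called, with a median of -0.48, and after the transcript correction 9 were lower. Over all genes 38.0% were called lower, and 34.2% after that correction. HMOX1, heme oxygenase and a classic marker of cadmium and oxidant exposure, went from 38.2 and 35.7 to 27.2 and 25.3 CPM and fell by 0.48. NQO1, a quinone reductase under the oxidant-responsive factor NRF2, fell by 0.56. The heat shock gene HSPA1B fell by 0.61 on the log2 scale. HSPA1A stood at 6.36 and 6.08 CPM in the control libraries against 3.59 and 1.41 CPM, a log2 change of -1.12 that was -1.58 without siAARS1 replicate 1 and -0.65 without siAARS1 replicate 2, and DESeq2 lost the call (adjusted p = 0.0714). Their near-identical sequences leave the split of reads between both uncertain. HSPH1, a heat shock protein of the HSP110 family, rose by 2.17, and by 1.13 after the transcript correction.

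Glucocorticoids induce MT2A, and other targets of the glucocorticoid receptor were compared. Of 9 genes 7 had a row, of which 1 rose, 5 fell and 1 was not called, with a median of -0.58. Over all genes 32.6% were called higher and 38.0% lower. After the transcript correction 1 of the 7 was higher, 4 were lower and 2 were not called, beside 31.9% and 34.2% of all genes called higher and lower. TSC22D3, a glucocorticoid-induced leucine zipper protein, went from 34.6 and 35.6 to 19.9 and 21.2 CPM and fell by 0.74. CRISPLD2, SGK1 and DUSP1 fell, with log2 changes of -0.64, -0.59 and -0.58, and with TSC22D3 all 4 stayed lower after the transcript correction. PER1, a clock gene, fell by 0.28, with 0.06 after the transcript correction, and KLF9 was not called at 0.08. FKBP5, a chaperone of the receptor and one of its strongest targets, rose by 0.51, and by 0.09 after it.

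**Figure D3:**
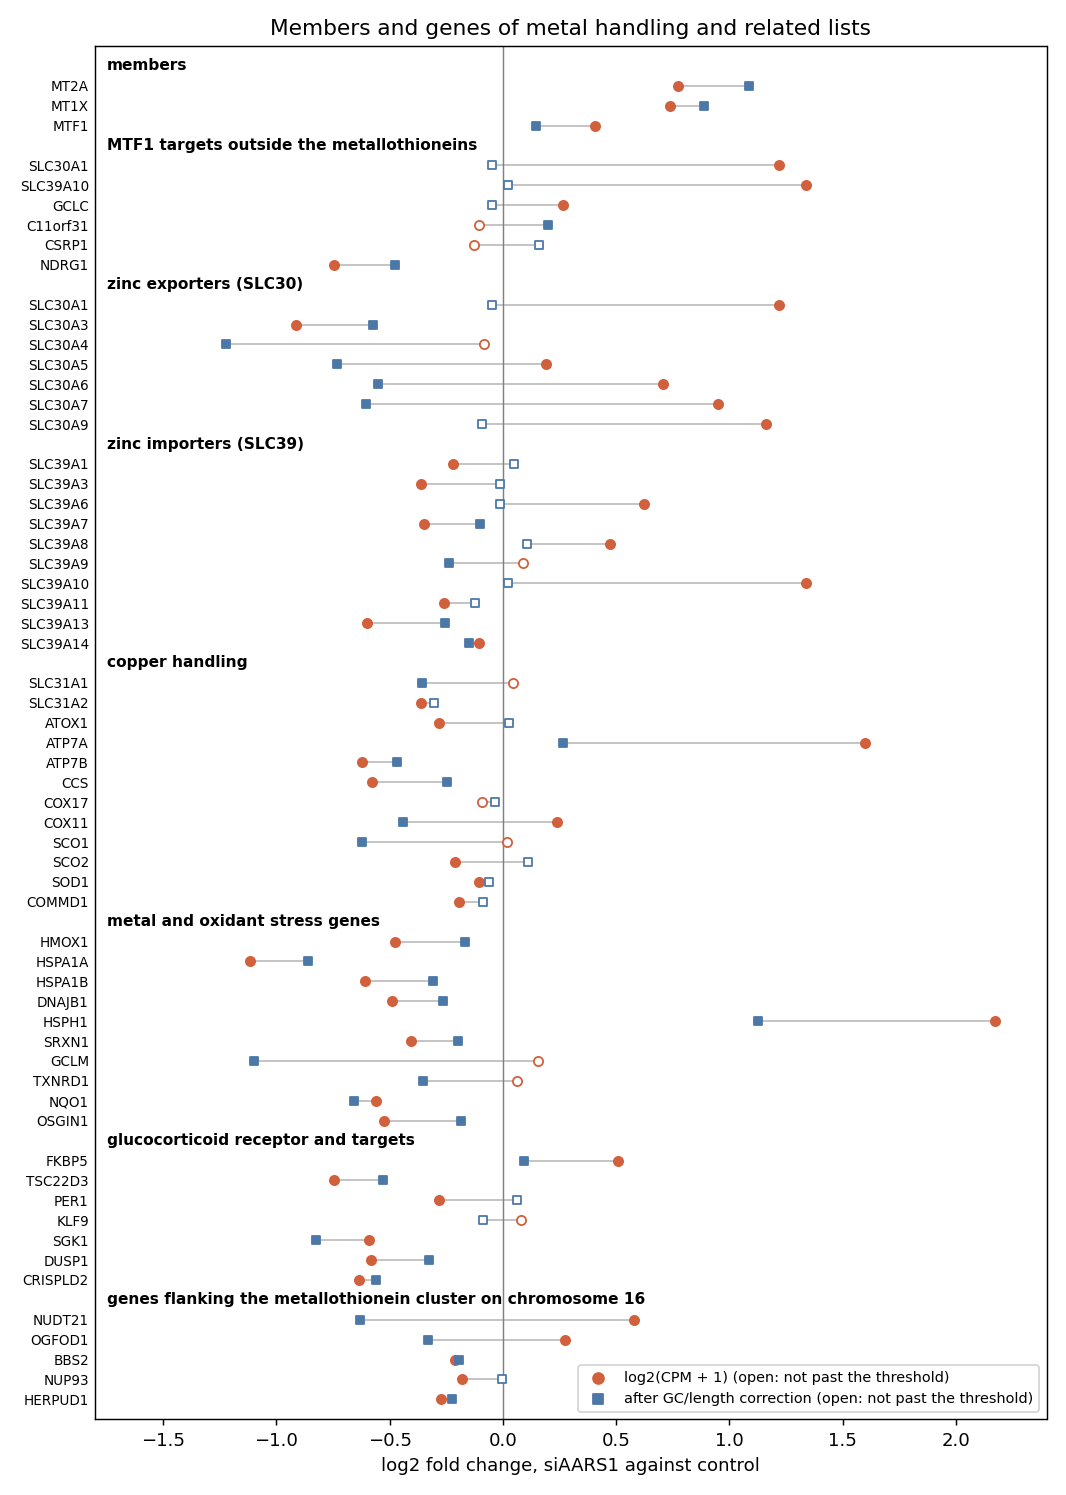
Log2 fold change of siAARS1 against control (x axis) for the 3 genes with a row and for tested genes of 7 lists (rows), as circles on the log2(CPM + 1) scale and squares after the correction for transcript GC content and length. Filled marks passed an adjusted p of 0.05, and both marks of MT2A and MT1X lie right of 0.5 whereas SLC30A1 moves from 1.22 to -0.05.

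The genes around the cluster on chromosome 16 were examined as well. MT1X starts 74.2 kb from MT2A. Of 8 flanking genes 5 had a row, and of these 2 rose and 3 fell, with a median of -0.18, while after the transcript correction 0 were higher and 4 lower. Over all genes 32.6% were called higher and 38.0% lower, and 31.9% and 34.2% after that correction. BBS2, a ciliary protein gene at -87.9 kb from MT2A, fell by 0.21 (-0.20 after the transcript and -0.67 after the coding correction). NUP93, a nuclear pore gene at 122 kb, fell by 0.18 (-0.0031, not called, and -0.27). HERPUD1, which serves protein degradation at the endoplasmic reticulum, fell by 0.27 (-0.22 and -0.18). NUDT21, a subunit of the complex that sets polyadenylation sites, rose by 0.58 and OGFOD1, a ribosomal protein hydroxylase, by 0.27. After the transcript correction they stood at -0.63 and -0.33, and after the coding correction at 0.52 and -0.11.

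**Figure D4:**
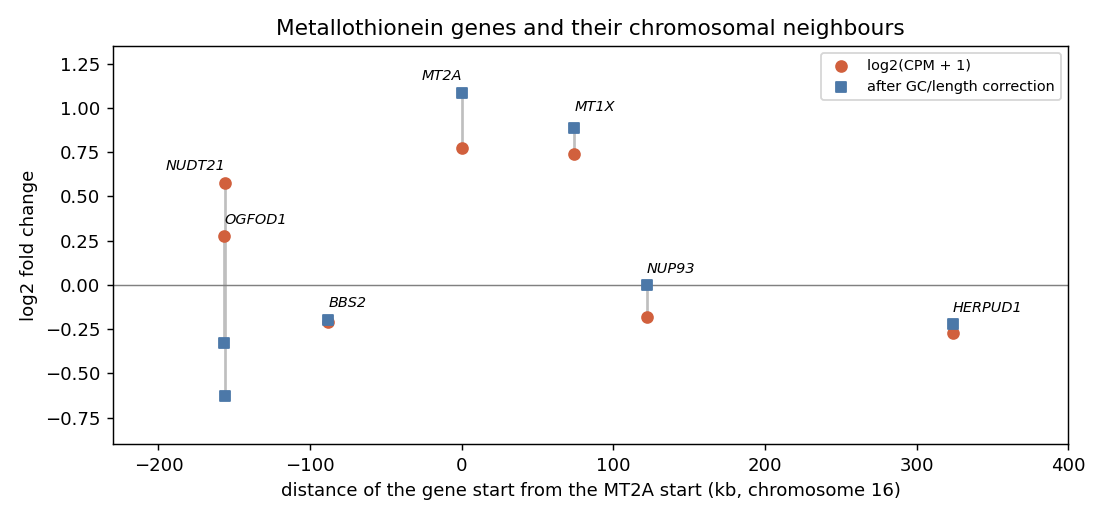
Log2 fold change of siAARS1 against control (y axis) against the distance of each gene start from that of MT2A on chromosome 16 (x axis, kb), as circles on the log2(CPM + 1) scale and squares after the correction for transcript GC content and length. MT2A and MT1X are the 2 genes whose marks are both above 0, and NUDT21 and OGFOD1 have a circle above 0 and a square below it.

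The label of the cells was checked with marker genes. Of 6 gastric mucosa markers 0 had a row, and of 6 epithelial markers 3 did (KRT8, CDH1 and CLDN7). Summed, these 3 ranged from 41.9 to 42.8 CPM in the controls and from 12.5 to 12.6 CPM after knockdown, so they fell where the metallothioneins rose. Of 7 mesenchymal or fibroblast markers 6 had a row, with sums of 7839 to 7871 CPM in the controls and 6533 to 6731 CPM after knockdown. VIM and COL1A1 made up most of that sum and changed by -0.13 and -0.57 (0.13 and -0.22 after the transcript correction). COL1A2 and PDGFRB changed by -1.07 and -0.95 (-0.81 and -0.64 after it). The remaining members went the other way. ZEB1, a repressor of epithelial genes, rose from 6.16 and 6.84 to 50.03 and 52.3 CPM (log2 change 2.80, 1.72 after the transcript correction). DCN was higher by 0.11 (-1.35 after it). Of the leukocyte markers, PTPRC and CD3E had no row and CD68 stayed at 0.486 to 1.10 CPM, and 0 of 3 endothelial markers had a row. The part of these shifts in the change of MT2A, MT1X and MTF1 was not tested.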

How the data were processed

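Groups and replicate numbers came from the sample titles. The authors deposited 1 table of CPM values (read counts scaled to library size), and RSEM 1.3.3 and hg38 are named in the submitters' processing notes. The aligner, the counting of strand and the annotation are not given in the sources used here. Each listed gene exceeded 1 CPM in at least 1 library. Divided by the value of 1 read, 100% of the deposited CPM values were whole (tolerance 0.05 of a read), so reads were recovered for edgeR 4.0.16 and DESeq2 1.42.0 as alternatives, in which 9806 genes were called by edgeR.

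The fit was limma 3.58.1 (trend, R 4.3.3) on log2(CPM + 1), siAARS1 against control, over the 14199 genes whose mean reached 1 CPM in 1 group or both. Fold changes on this scale understate the change of low genes. P-values were adjusted by Benjamini-Hochberg over all genes tested, threshold 0.05. Libraries of a group differed beyond sampling noise (chi-square per gene 3.63 and 3.61). GC content and length came from GENCODE v29 for 97.2% of genes, and the trend was fitted with mgcv 1.9.3. The code was tested on simulated data.

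Named genes are all symbols looked up, AARS1, in each list up to 4 called genes with the largest absolute change (any member of lists with 9 or fewer listed genes), and the 5 genes nearest to MT2A and to MTF1. HMOX1, ZEB1, DCN, COL1A2 and PDGFRB were named after their values were seen. The symbols and lists were chosen with earlier results of these data known. A flanking gene and a leukocyte marker of these lists are not reported here. Alternatives were another pseudocount, no filter, other scalings, a replicate block, leaving out each library, a threshold of 0.01, 2 corrections for GC content and length, and count models.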

Additional observations from a re-analysis of the deposited data

How the results depend on the processing

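The count of genes called (10032) stayed within 1.5 times under all 16 alternatives, and MT2A, MT1X and MTF1 kept direction and call. Leaving out 1 library leaves 1 library in a group, so only the size of the change is given. It gave log2 changes of 0.75 to 0.80 for MT2A, 0.69 to 0.78 for MT1X and 0.40 to 0.41 for MTF1.

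The GC content and length correction, with or without the replicate block, called 2 MTF1 targets (1 of the 4 called without it) and 4 zinc importers (3 of the 9 called without it). It reversed SLC30A7 (-0.61), SLC30A6 (-0.55), SLC30A5 (-0.73), NUDT21 (-0.63) and OGFOD1 (-0.33), which were then called lower. SLC30A1 (-0.049), GCLC (-0.048), SLC30A9 (-0.092), SLC39A6 (-0.012) and PER1 (0.064) changed sign but were no longer called. The coding sequence correction, chosen after seeing the data, reversed SLC39A10 (-0.22), GCLC (-0.31), SLC30A6 (-0.22), SLC30A5 (-1.07), SLC39A6 (-0.32) and OGFOD1 (-0.11), all called lower. With it ATP7A (-0.20) and PER1 (0.081) changed sign but were not called. Under median scaling SLC30A5 (-0.029) changed sign and was not called. These are the changes of sign among called genes that the rule names from the lists. Changes of sign among the genes nearest to MT2A and to MTF1 are given under the other observations. Copper genes called went from 9 of 12 to 5 at a threshold of 0.01 and with DESeq2. Over all 14199 genes tested, calls went from 10032 to 8714 at that threshold and to 8355 with DESeq2. The cause was not tested, beyond that a stricter threshold calls fewer genes. Of the called genes 46.2% were higher, against 28.8% under median scaling.

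The labels share replicate numbers without saying that they mark pairs, and same-numbered libraries deviated together only weakly (correlation 0.118 over 14199 genes). A replicate block gave 10389 genes called and changed no call of MT2A, MT1X or MTF1. At this depth MT1X rests on 476 to 841 reads a library, and with 2 libraries a group its error is itself poorly known.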

Other observations

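The genes whose 4 values ran closest to those of MT2A, by Euclidean distance of log2(CPM + 1) centred on the control mean over 11282 genes whose mean reached 5 CPM, were ADI1 (distance 0.0236), MED14, ZBTB2, PITPNB and DDX20 (0.0451). ADI1, an enzyme of the methionine salvage pathway, went from 86.3 and 82.3 to 146 and 142 CPM, and its log2 change was 0.77 both before and after the transcript correction. MED14, a Mediator subunit, changed by 0.75 but by -0.37 after it. Closest to MTF1 were FAM107B (0.00444), AL589743.1, SRSF7, PLAA and CACYBP (0.0207), of which 4 were below 0 after the correction and AL589743.1 was at 0.20. Such a likeness rests on 4 libraries in 2 groups.

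Promoters of 10086 of 12309 protein-coding genes tested (81.9%) were searched for MRE cores, and genes were grouped by their number of cores. Without correction the share called higher was 34.9% of 6672 genes with 0 cores, 35.3% of 2418 with 1 core, 33.0% of 757 with 2, 32.6% of 187 with 3 and 39.4% of 33 with 4. Of the 19 genes with 5 or more cores 6 were called higher, and 5 of 18 with MT2A left out. After the transcript correction the shares were 32.5% with 0 cores, 34.4% with 1, 34.2% with 2, 45.5% with 3 and 30.3% with 4, and 11 of 19 with 5 or more (10 of 18 without MT2A). The last group holds 19 genes, and no test was made of these shares. Among those 19 genes the log2 change after the correction ran from CHD1, a chromatin remodeller, at 1.38 and MT2A at 1.08 to ASPHD2 at -0.56.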
